A study of Caenorhabditis elegans with 2 samples.

Results

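Of the 2470 GRH-1 peaks in the pooled list, 399 (16.2%, 95% Wilson interval 14.8 to 17.7) had their summit in an intron of a protein-coding gene and outside every promoter window. Such sequence makes up 27.2% of the genome. A promoter window reached 1000 bp upstream and 200 bp downstream of each coding transcript's 5′ end, and summits in any coding exon or UTR were left out as well. The intronic summits were chosen by position alone, from the annotated introns of all transcripts, and lay in 320 host genes. For comparison, 1337 summits lay in promoter windows and 547 were intergenic.

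GRH-1 is a Grainyhead transcription factor of Caenorhabditis elegans. The animals, of strain RW12208, carried the allele st12208, an insertion of TY1, EGFP and 3xFLAG made by CRISPR at grh-1 itself, so that both libraries carried the tagged allele. The control library was not analysed here. Chromatin of whole L1 larvae, starved after bleaching and aged 6 h, was sheared by sonication and precipitated through the GFP tag. There was 1 group with 2 biological replicates. Whole animals mix all tissues, so a peak cannot be assigned to a cell type. The depth in reads is unknown, and intervals cover counting error over peaks or genes only, while neighbouring peaks are not independent.

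Grainyhead proteins bind DNA as dimers at a palindrome that contains CCGG and are known in flies and mammals for their role in the epidermis and other epithelia. In C. elegans the epidermis also makes the cuticle, which is replaced at each larval molt under the control of nuclear receptors and of heterochronic timing genes. Introns in this animal are often short, and long introns, above all first introns, are known to hold enhancers and additional 5′ ends. The signal value given below is the authors' score for a peak. It belongs to its own list, so the pooled value and those of the replicates are on separate scales and only order peaks within a list.

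The palindrome AACCGGTT occurred within 100 bp of 22 intronic summits (5.51%, 3.67 to 8.21), at 23 sites. The sites below belong to hosts among these 22 and show how the bases next to the palindrome varied. Each is read 5′ to 3′ on the forward strand of ce11, with the palindrome in capitals and 11 bases to either side.
Y48C3A.5: gtcgatcggaaAACCGGTTgagaccggcgg
lat-2: aatgaggttatAACCGGTTttgtgtgtatc
ifbp-1: ttgtcgggtaaAACCGGTTgatcgaaaaga
gnrr-3: ccccttctggaAACCGGTTattttctataa
sea-2: aacgaataaacAACCGGTTtcgaggaactg
F46H5.7: tgcatgttctaAACCGGTTtcggattatca
K02D10.1, first site: aatctacctcaAACCGGTTctggttgtgtc
K02D10.1, second site: caatcactataAACCGGTTtttcttaagaa
ptr-18: gacgccacagaAACCGGTTtcggcagcgct
glr-4: cacttattcaaAACCGGTTcaattagattt
cest-24: ttctcaatacaAACCGGTTtcattgaatag
wrt-1: ataagcggctaAACCGGTTatttctttctt
osg-1: acagtaaaagaAACCGGTTtgcaggttcta

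Of the 23 sites, 9 had A before and T after the palindrome, like those in F46H5.7, ptr-18, cest-24 and osg-1, and 12 had one of the pair. The site in Y48C3A.5 was at chrII:13291762-13291769 and that in lat-2 at chrII:4362242-4362249. The sites lay close to the summits: 13 of 23 (56.5%) had their centre within 25 bp, the median distance was 22.5 bp and the largest 55.5 bp. The nearest were 0.5 bp away in src-2, which encodes a Src-family tyrosine kinase, and 1.5 bp away in glr-4, which encodes a glutamate receptor subunit.

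The strongest intronic summit lay in Y48C3A.5, in an intron of 19927 bp on chromosome II (chrII:13291485-13291961). Its signal value was 2126.7 in the pooled list, 1133.0 in replicate 1 and 955.3 in replicate 2, and it ranked 5 among all 2470 peaks. The next intronic summit was well below it in all 3 lists. It lay in Y111B2A.12 (chrIII:12612500-12612803), with 1112.0 in the pooled list, 657.6 in replicate 1 and 461.2 in replicate 2. The third, in epg-9, the worm counterpart of the autophagy factor ATG101, had 932.7, 503.0 and 434.8 in the same order.

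A summit in the first intron of let-607, which encodes a bZIP transcription factor of the CREBH type, came next with a pooled value of 900.3, and with 501.8 and 407.3 in the replicates. It held the palindrome, as did those in lat-2, a latrophilin adhesion receptor gene (713.5, with 380.1 and 328.8), and in tub-2 (659.6, with 362.6 and 298.9). The summit of mom-1, which encodes the Porcupine homologue needed for Wnt secretion, had 824.5, with 462.4 and 356.4 in the replicates, and held neither a Grainyhead-type site nor GAGAGA. These summits ranked high in both replicates. The rest of the 15 strongest were in pqn-41 (785.6), F58G1.7 (748.6), the nuclear receptor gene nhr-41 (713.3), T02G5.14 (695.6), the SUMO protease gene ulp-4 (688.3), the palmitoyltransferase gene dhhc-2 (667.8), asd-2, which encodes a STAR-family splicing regulator (655.8), and the CCCH zinc-finger gene ccch-1 (653.0). That of F58G1.7 also lay in an exon of the non-coding RNA gene F58G1.11.

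Most intronic summits were of modest height. The median pooled signal value was 114.0 (lower quartile 85.5, upper quartile 204.8), against 142.1 at promoter windows, 122.7 at intergenic summits and 82.1 at the 121 summits in exons. Of the 100 highest peaks of the list 11 were intronic, and of the 500 highest 64. In the authors' ranked list, from which the thresholded list was drawn, introns held 30305 peaks, of which 1.32% (1.19 to 1.45) were in the thresholded list. That share was 4.36% for promoter windows, 2.37% for intergenic peaks and 2.1% for all 117774 ranked peaks. It decides membership and is given as a description.

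Intronic summits were found in both replicates' own thresholded lists less often than promoter summits. A peak of both lists overlapped 167 of 399 (41.9%, 37.1 to 46.8), against 761 of 1337 promoter summits (56.9%; odds ratio 0.545, two-sided Fisher's exact p adjusted over 2 comparisons = 2.66e-07) and 50.2% of all pooled peaks. Against intergenic summits, of which 262 of 547 (47.9%) were in both lists, the odds ratio was 0.783 and the difference did not pass (adjusted exact p = 0.0742). The list of replicate 1 alone held a further 91, that of replicate 2 alone 35, and 106 (26.6%, 22.5 to 31.1) were in neither. Overlap followed height: of the 100 intronic summits with the highest signal values 100% were in both lists, of the next 100 it was 55%, and in the groups below 7.07% and 5%. Among the 1235 highest-scoring peaks the odds ratio against promoters was 0.67 and did not pass (adjusted exact p = 0.107).

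Peaks below the threshold were also looked up, in the ranked list of each replicate. A ranked peak lay over 378 of the 399 summits in both replicates. Their median signal value was 65.5 in replicate 1 and 53.6 in replicate 2. The log2 ratio of replicate 1 over replicate 2 had a median of 0.32 and an SD of 0.54 across summits, and 284 of 378 were higher in replicate 1. At promoter summits it had a median of 0.36 and an SD of 0.52. Each list has its own scale, so the offset is no measure of binding. The Spearman correlation across the 378 summits was 0.77. It is a description, since the summits come from the same 2 libraries.

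**Figure D1:**
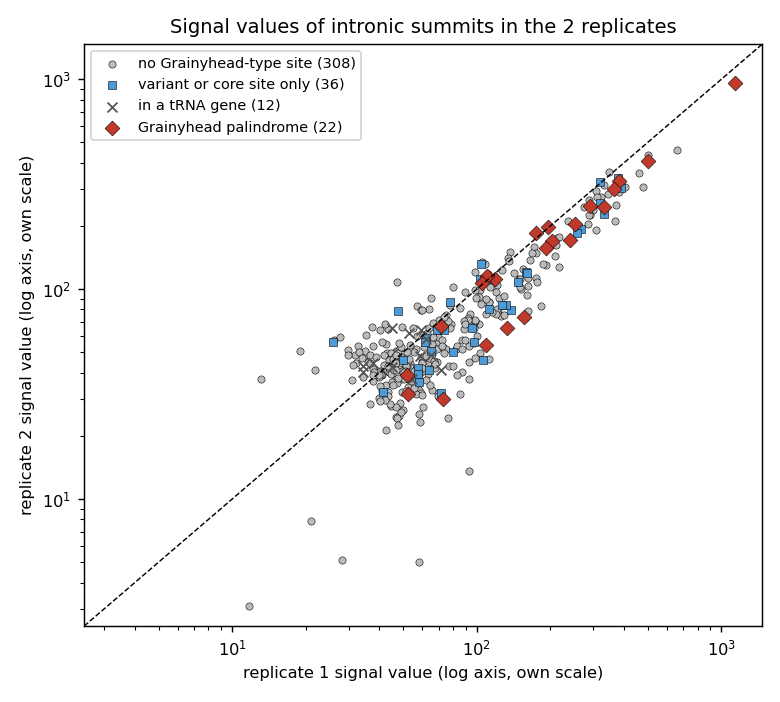
Signal values of the 378 intronic summits with a ranked peak in both replicates, replicate 1 against replicate 2 on log axes, with the line of equal values dashed. The 22 summits with the Grainyhead palindrome (diamonds) reach from the low cloud to the highest point, Y48C3A.5 at 1133.0 and 955.3, and the 12 in tRNA genes (crosses) lie in the low cloud.

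Intronic summits lay mostly in long introns and often in the first. Introns over 1000 bp held 268 (67.2%, 62.4 to 71.6), while they made up 46.8% of the intron bases outside promoter windows. The median length of the intron around a summit was 2299 bp, against 918 bp over all these bases. There were 32.3 summits per Mb in introns longer than 3000 bp and up to 10000 bp and 31.7 in longer ones, against 14.7 over all introns and 3.92 in introns of up to 100 bp. The first intron of at least 1 transcript held 180 summits (45.1%, 40.3 to 50), against 28.7% of the bases. These shares are partly set by the choice of summits outside promoter windows and were not tested.

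**Figure D2:**
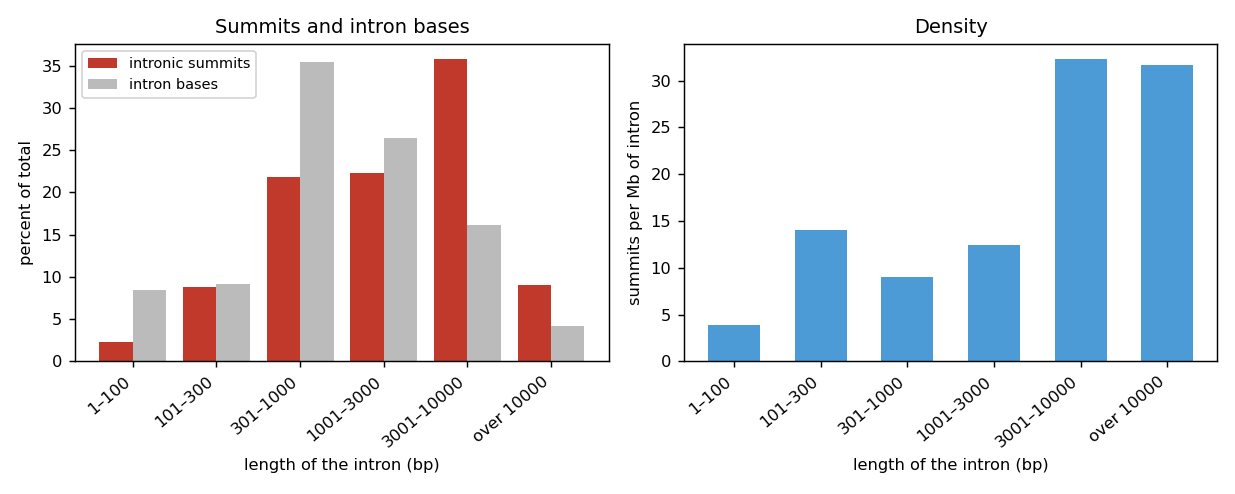
Left, percent of the 399 intronic summits (red) and of the intron bases outside promoter windows (grey) by length of the shortest intron at that position; right, summits per Mb of intron. Introns longer than 3000 bp and up to 10000 bp hold 35.8% of the summits and 16.2% of the bases.

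A splice site of the surrounding intron lay within 100 bp of 58 summits (14.5%, 11.4 to 18.3), against 32.6% of the intron bases outside promoter windows, and 223 (55.9%, 51 to 60.7) were nearer to the donor than to the acceptor. The nearest 5′ end of a coding transcript belonged to the host gene for 340 (85.2%). Among the 15 strongest summits it belonged to another gene for those in Y48C3A.5 and mom-1. Over all intronic summits the nearest such end was at a median distance of 1614 bp, and 73 (18.3%) had none within 3000 bp. The summit lay upstream of that nearest end for 111 (27.8%). The limit of the promoter window decides part of the membership, since 33.5% of all summits at intronic positions lay inside such a window. Just outside it, 26 intronic summits were more than 1000 and up to 1200 bp upstream of a 5′ end (median signal value 136.1) and 22 were more than 200 and up to 400 bp downstream (101.9). Just inside were 24 summits more than 800 and up to 1000 bp upstream (123.3) and 7 in the first 200 bp downstream (86.8). Across chromosomes the density ran from 11.6 summits per Mb of intron on V and 12.4 on IV to 16.6 on II and X.

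The sequence at intronic summits differed from that around them. Windows of 100 bp to either side of the summit base had a median GC content of 44.3%, against 35.8% in windows centred 500 bp to either side and 33.3% in 272355 windows tiling all introns, while promoter and intergenic summits both had 42.3%. AACCGGTT, at 5.51% of the summits, was at 0.251% of the flanks and 0.188% of the intron windows. GAGAGA, a repeat bound by GAGA-type factors in flies, was at 158 summits (39.6%, 34.9 to 44.5), 13.7% of the flanks and 8.05% of the intron windows. The E-box CACGTG, a site of bHLH factors, was at 59 summits (14.8%, 11.6 to 18.6) and 4.14% of the flanks. The nuclear receptor half-site RGGTCA was at 70 (17.5%, 14.1 to 21.6) and 8.15% of the flanks, while the GATA-type TGATAA was at 17.3% and 16.3%. TTTAAAAA, at 2.26% against 12.3%, and TTTCAG, the end of the acceptor consensus, at 13.8% against 32.7%, were rarer at the summits. The share of G and C moved with these differences, and its part in them was not tested. Flanks were not limited to introns, and summits were within 100 bp of a splice site less often than intron bases (14.5% against 32.6%). The part of position in these differences was not tested either. Sites were searched on both strands. AACCGGTT also counts for AACYGGTT (Y for C or T) and for ACCGGT.

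Of 24 comparisons with promoter and intergenic summits, 8 passed (33.3%), all against promoters. AACYGGTT was more frequent in introns (46 summits, 11.5%, against 6.96%; odds ratio 1.74, two-sided Fisher's exact p adjusted over the 24 = 0.0264), and so were ACCGGT (8.77% against 5.31%, odds ratio 1.71), GAGAGA (39.6% against 32.5%, 1.36), CACGTG (14.8% against 9.5%, 1.65), RGGTCA (17.5% against 11.7%, 1.61) and TGATAA (17.3% against 12%, 1.53). Less frequent were TTTAAAAA (2.26% against 6.51%, odds ratio 0.332) and TTTCAG (13.8% against 19.7%, 0.653). AACCGGTT alone (5.51% against 2.92%, odds ratio 1.94) had an adjusted exact p of 0.0512, and AGACGCAG (10.5% against 12.5%, 0.824) one of 0.536. None of 12 passed against intergenic summits, where the lowest adjusted exact p was 0.21 and no unadjusted p was under 0.05.

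The calls against promoters depended on the choice of list and window. With promoter windows of 2000 bp upstream 0 of 24 passed, and with the authors' conservative list 2. In the list of replicate 2 alone 4 passed. RGGTCA (odds ratios 1.27 and 1.35) and TTTCAG (0.615 and 0.657) passed in neither replicate's own list, while TGATAA (1.65) and TTTAAAAA (0.307) failed without replicate 1 and passed without replicate 2. TGATAA also failed with sites counted within 50 bp (odds ratio 1.16, adjusted exact p = 0.837) or 200 bp (1.01, adjusted exact p = 0.991) of the summit, and TTTCAG within 50 bp (0.884, adjusted exact p = 0.87). AACCGGTT passed without replicate 2 (odds ratio 2.3, adjusted exact p = 0.0172), and so did AACTGGTT (2.03, adjusted exact p = 0.0301), which had 6.02% against 4.04% in the pooled list. Neither passed without replicate 1 (odds ratios 2.22 and 1.65).

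**Figure D3:**
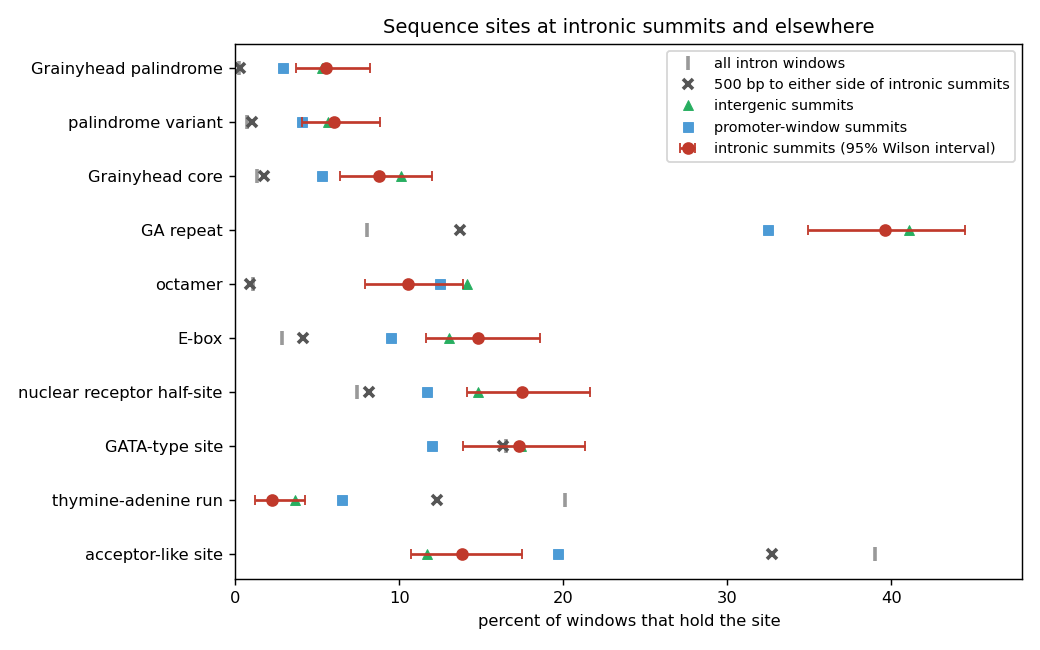
Percent of windows, 100 bp to either side of a summit, that hold each site, at intronic summits (red points with 95% Wilson intervals), promoter-window summits (squares), intergenic summits (triangles), flanks 500 bp to either side of intronic summits (crosses) and all intron windows (bars). The palindrome is AACCGGTT, its variant AACTGGTT, the core ACCGGT, the octamer AGACGCAG, the thymine-adenine run TTTAAAAA and the acceptor-like site TTTCAG. The 8 comparisons that passed were all against promoter-window summits.

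Intronic summits with the palindrome were high ones. Their median signal value was 355.1 (79.9 to 2126.7), against 172.6 at 24 summits with AACTGGTT but not the palindrome, 187.6 at 12 with ACCGGT only and 106.8 at the 341 with none of these. Of the 22 palindrome summits 17 were among the 100 highest intronic summits, and the groups below held 2, 2 and 1. In both replicates' lists were 18 of the 22 (81.8%), 16 of the 24 (66.7%), 6 of the 12 (50%) and 127 of the 341 (37.2%). Members were chosen by position within the pooled list. That list is itself the thresholded part of the ranked peaks, so these values are a description. GAGAGA also went with height, from 55% and 48% of the upper groups to 28.3% and 27% of the lower ones.

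Seen from the introns, most palindromes had no summit. Of 251 AACCGGTT sites in intron sequence outside promoter windows, 23 (9.16%, 6.18 to 13.4) lay within 100 bp of an intronic summit. With A before and T after it was 9 of 73 (12.3%, 6.62 to 21.8), with one of the pair 12 of 121 (9.92%), and with neither 2 of 57 (3.51%, 0.968 to 11.9). In first introns it was 10 of 81 (12.3%, 6.85 to 21.3) and in other introns 13 of 170 (7.65%, 4.52 to 12.6). These intervals overlap.

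Palindrome hosts had varied functions. In daf-16, which encodes the FOXO factor of insulin signalling, the palindrome was 4.5 bp from a summit with a pooled value of 391.5, with 196.4 and 197.1 in the replicates. In wrt-1, a hedgehog-related gene, it was 31.5 bp from a lower summit with 161.1, with 108.9 and 53.9 in the replicates, found in the list of replicate 1 only. The others, by pooled value, were src-2 (583.2), ifbp-1, an intermediate filament-binding protein gene (550.1), gnrr-3 (458.5), the zinc-finger gene sea-2 (415.8), F46H5.7 (372.1), K02D10.1 (360.0), Y45G5AM.9 (350.2), the patched-related gene ptr-18 (231.6), glr-4 (223.0), ogt-1, the O-GlcNAc transferase gene (217.3), F53E4.1 (211.8), cest-24 (205.9), C18B12.4 (137.1), the astacin protease gene nas-30 (99.8), C48E7.1 (91.6) and osg-1 (79.9). K02D10.1 held 2 sites at 1 summit.

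A second recurrent sequence was the octamer AGACGCAG, at 42 intronic summits (10.5%, 7.88 to 13.9), 0.877% of the flanks and 1.09% of the intron windows. Of the 42, 33 (78.6%) also held GAGAGA, against 39.6% of all intronic summits. Part of this is built in: after GAG, as in T02G5.14 and pqn-41, the octamer's own first bases complete a GAGAGA. The part of such overlap was not tested. Examples are shown in the orientation of the octamer, which is in capitals, since the bases around it often repeat the same letters.
Y111B2A.12: aaatgacaccgAGACGCAGacatcgagtga
epg-9: agacactggtgAGACGCAGacatcaaaaga
lat-2: atgatttgaggAGACGCAGagattagagag
T02G5.14: gcgagaaagagAGACGCAGgctgactgcaa
pqn-41: gacggttcgagAGACGCAGagagcacgatg
ifbp-1: aatgggatgaaAGACGCAGacgcgcagagg
Y43F8B.2: agggagaccagAGACGCAGacatcattgtg
zfp-1: caagagagtagAGACGCAGacaaatagtgg
skn-1: gtccaatgggaAGACGCAGaggtaaaaaaa

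The octamer lay less close to the summit than the palindrome did. The nearest site was within 25 bp in 11 of 42, and the median distance was 41 bp. Of 1632 octamers in introns outside promoter windows, 47 (2.88%, 2.17 to 3.81) were within 100 bp of an intronic summit. Those followed by AGA or ACA, like the ones in lat-2 and epg-9, had a summit in 24 of 397 cases (6.05%, 4.1 to 8.84), and those followed by other bases in 23 of 1235 (1.86%, 1.24 to 2.78). The split by following bases was chosen after the sites were seen. Of the 42 summits with the octamer, 40 had no Grainyhead-type site, as had 341 of all 399 intronic summits (85.5%). The other 2 included that in lat-2, which held the palindrome, found at 5.51% of all intronic summits. In lat-2 the palindrome lay 22.5 bp from the summit on one side, and the octamer 6.5 bp away on the other. These counts are small and were not tested. No Grainyhead-type site, GAGAGA or AGACGCAG was found at 199 summits (49.9%).

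Some hosts held several summits. Of 320 hosts, 264 had 1 intronic summit, 36 had 2, 13 had 3 and 7 had 4. These counts include summits of peaks that overlap each other. With overlapping peaks merged and 1 summit kept per region, 379 intronic summits remained. In pqn-41, a gene for a glutamine-rich protein known from linker cell death, all 4 were high: 785.6, 461.5, 511.1 and 621.9 in order from the 5′ end, with 479.3, 235.9, 285.9 and 345.2 in replicate 1 and 305.1, 212.3, 204.8 and 282.5 in replicate 2. They lay in 1 intron of 7776 bp, 15510 to 20626 bp from the outermost 5′ end, and none held a Grainyhead-type site, while all but the second held GAGAGA. That intron was the first of at least 1 transcript. The nearest 5′ end was one of pqn-41 itself, with the summits at 1897, -3976, -2283 and -1087 bp from it (negative for upstream). In ifbp-1 the first intron of 7248 bp held summits of 124.6, 76.1, 550.1 and 582.4, the third of which had the palindrome. In ccch-1 they were 343.9, 69.4, 653.0 and 76.1, and in hlh-30, which encodes the TFEB factor of autophagy and lysosome genes, they were even, from 87.6 to 125.4.

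The other hosts with 4 were F09A5.3 (52.8 to 251.3), lir-1 (45.9 to 202.8) and daf-5, the Ski-related gene of the dauer TGF-beta pathway (17.4 to 142.1). In daf-5 they formed 2 pairs in an intron of 14446 bp. Measured from the gene's outermost 5′ end, the pairs lay at 1443 and 1655 bp and at 11694 and 11893 bp. The lower of each pair had 17.4 and 28.4. Hosts with 3 were Y48C3A.5, daf-16, lit-1, the Nemo-like kinase gene (94.9, 104.4 and 26.4), the protein kinase G gene pkg-2 (247.7, 106.2 and 605.4), ppfr-1 (184.4, 582.9 and 95.9), zfp-1, a zinc-finger gene related to AF10 (212.1, 582.6 and 139.4), Y43F8B.2, the Integrator gene ints-8, spsb-1, ZK470.2, scd-1, psd-1 and F49E2.5. Low values beside high ones were frequent among neighbours. All 16 intronic summits with a signal value under 50 lay within 500 bp of a stronger summit. Another summit lay within 300 bp of 42 (10.5%) and within 1000 bp of 85 (21.3%).

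**Figure D4:**
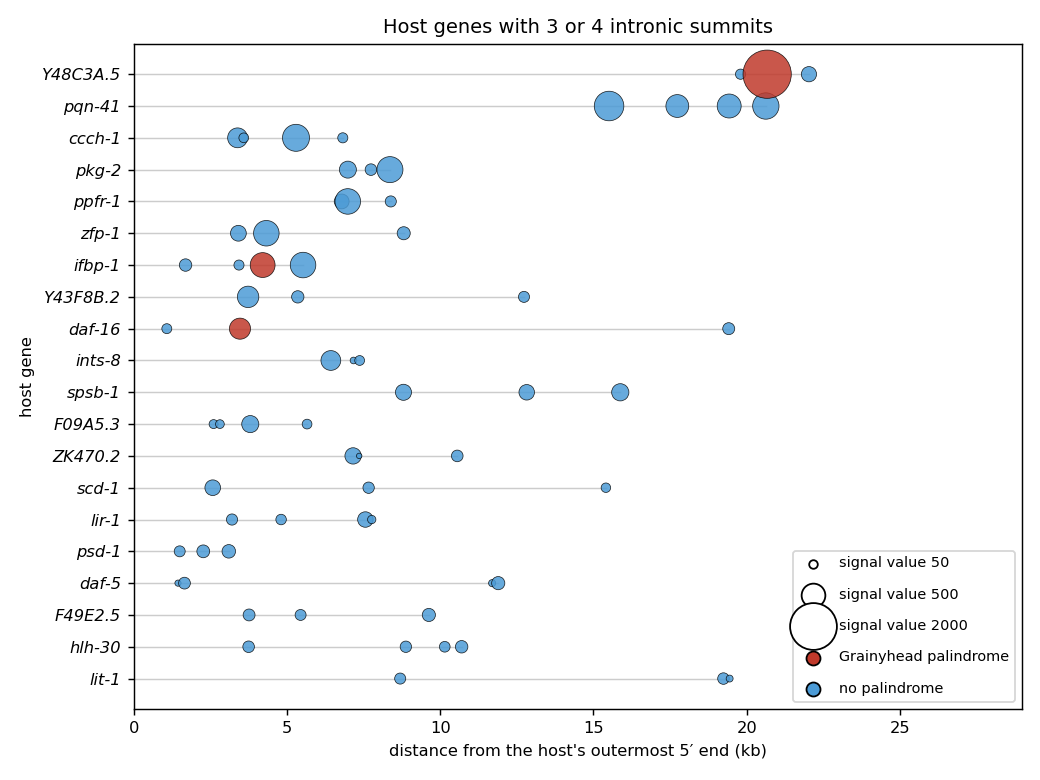
Position of each intronic summit in the 20 host genes with 3 or 4 of them, in kb from the host's outermost 5′ end, with the area of a point growing with the pooled signal value. Y48C3A.5 has 1 high summit with much lower neighbours (78.1 and 196.0), while the 4 of pqn-41 are all above 461. Summits of overlapping peaks are drawn separately.

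Hosts of intronic summits often had a promoter summit too. That was so for 82 of 320 (25.6%, 21.2 to 30.7), against 1248 of 17007 genes (7.34%) with intron sequence outside promoter windows but no intronic summit, and 8.16% of all protein-coding genes. Hosts had more intron sequence, with a median of 3916 bp against 677 bp. Among the 1233 genes with at least 5000 bp of it, 132 (10.7%) were hosts, of which 41 (31.1%) had a promoter summit, against 109 of the other 1101 (9.9%).

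Host genes were then counted in lists of selected genes, which need not cover every gene of their kind, so each count holds for its list only. The lists were chosen with earlier results of these data known. They also differed in intron sequence. The median per gene was 2480 bp for molting and timing, 2549 bp for epidermal factors and 693 bp over all genes. The part of intron length in the shares below was not tested. Of the listed genes of molting and larval timing 8 of 40 were hosts (20%, 10.5 to 34.8), against 320 of 17327 genes with intron sequence outside promoter windows (1.85%). The highest were nhr-41 (713.3, with 379.7 and 339.7 in the replicates) and kin-20, which encodes a casein kinase 1 related to Doubletime (566.8, with 332.0 and 227.8, and a second summit of 283.0). Next were nhr-25, the FTZ-F1-type receptor gene (256.5, with 147.1 and 108.0), and lin-42, the Period homologue (236.1, with 104.5 and 132.3). These highest summits of nhr-41, kin-20, nhr-25 and lin-42 all held ACCGGT without AACCGGTT or AACTGGTT, together with GAGAGA, and were in both replicates' lists. The remaining ones were nhr-85 (118.7), nhr-23, the ROR-type receptor gene that drives molting (96.9), the heterochronic gene lin-14 (72.7) and lrp-1, the megalin homologue needed for molting (71.2). Those of nhr-23, lin-14 and lrp-1 were in neither replicate's list. None of the summits of these remaining hosts, nor the second summit of nhr-41 or kin-20, held a Grainyhead-type site. Among them, only the second summit of kin-20 and that of lin-14 held GAGAGA. Of all intronic summits, 3.01% held ACCGGT only and 39.6% held GAGAGA. Of the 8 hosts, 6 also had a promoter summit.

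Of the listed epidermal and seam cell transcription factor genes 5 of 29 were hosts (17.2%, 7.6 to 34.5), with nhr-23 and nhr-25 in this list as well. The summit of lin-1, the ETS factor gene downstream of Ras, lay in an intron of 20948 bp, 18712 bp from the gene's outermost 5′ end. It had 285.6 in the pooled list, 159.5 in replicate 1 and 121.3 in replicate 2. That of skn-1, the Nrf-type factor gene, had 200.8, 119.9 and 76.4, and that of the GATA factor gene egl-18 had 94.1, 52.1 and 44.3. Of the listed junction, polarity and attachment genes 2 of 48 were hosts (4.17%, 1.15 to 14), the innexin gene inx-13 (160.0 and 88.7) and the cadherin gene hmr-1 (82.3). Of the listed cuticle collagen and apical matrix genes it was 1 of 44 (2.27%, 0.402 to 11.8), wrt-1, and their median intron sequence was 358 bp. Both intervals include the 1.85% of all genes. Hosts outside these lists included the collagen genes col-72 (285.7) and col-85 (114.0), the protease gene dpy-31 (217.7), the innexin gene inx-11 (284.3) and the polarity kinase gene par-1 (124.9), which were looked up after their values were seen.

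Of the listed nuclear hormone receptor genes 15 of 269 were hosts (5.58%, 3.41 to 9). Beside nhr-41 the highest were nhr-19 (317.9 and 138.4), nhr-14 (268.8) and nhr-31, known from the excretory cell (263.6). Of the listed signalling genes of the Wnt, Notch, EGF and TGF-beta pathways 4 of 54 were hosts (7.41%, 2.92 to 17.6), which did not include mom-1 since the list lacks it. They were lag-1, the CSL factor gene of Notch signalling (345.7 and 198.5), the Schnurri homologue sma-9 (155.9), the Smad gene daf-14 (119.6) and lit-1. Of the listed insulin and dauer genes 3 of 48 were hosts (6.25%, 2.15 to 16.8): daf-16, daf-5 and the insulin receptor gene daf-2 (92.2). Of the listed homeobox genes 2 of 96 were hosts (2.08%, 0.573 to 7.28), vab-3, the Pax6 homologue (84.1 and 79.6), and zfh-2 (81.0), and neither was in both replicates' lists.

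The list of genes for axon guidance, synapses and neuronal channels had a median of 4575 bp of intron and 0.478 Mb in all, the most of the 11 lists, and 0 of its 68 genes were hosts (upper Wilson bound 5.35%). This zero belongs to the selected genes: other genes known from neurons were hosts, among them glr-4, the glutamate receptor gene glr-2 (183.7), the PAK-type kinase gene max-2 (557.6), the serotonin transporter gene mod-5 (487.7) and the CaM kinase gene unc-43 (97.7). All but glr-4 were looked up after their values were seen. Of the listed muscle genes 1 of 42 was a host, the tropomyosin gene lev-11 (115.2), and of the listed ribosomal protein genes, with 0.00406 Mb of intron in all, 0 of 34.

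Few summits stood behind the density of each list, in summits per Mb of intron. There were 63.1 in the insulin and dauer list (8 summits), 59.4 in the molting list (10), 44.5 in the nuclear receptors (19), 40.1 in the epidermal factors (5), 36.3 in the signalling genes (7), 20.1 in the collagen and matrix genes (1), 12.5 in the homeobox genes (3), 9.52 in the junction genes (3), 6.23 in the muscle genes (1) and 0 in the neuronal and ribosomal lists, against 14.6 over all genes. Summits of overlapping peaks were counted separately in these densities. In the insulin and dauer list the daf-5 summits of 28.4 and 17.4 had peaks overlapping those of 142.1 and 110.2. Overlapping peaks of nhr-46, nhr-48 and lit-1 were also counted separately. Densities with such peaks merged were not computed, so the order of the lists may depend on this. The lists overlap and were not tested as sets.

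**Figure D5:**
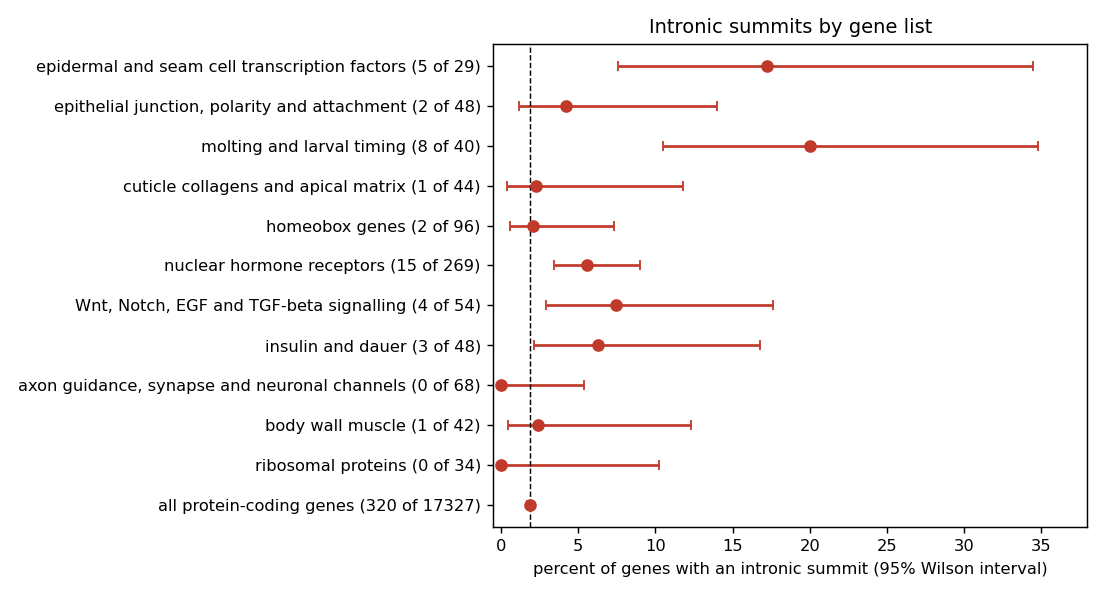
Percent of the selected genes of each list that hold an intronic summit, with 95% Wilson intervals and the number of hosts of the genes with intron sequence outside promoter windows; the dashed line is the 1.85% of all protein-coding genes. Molting and timing genes (20%) and epidermal factor genes (17.2%) lie highest, and the neuronal list has 0 of 68. The lists differ in intron sequence per gene.

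Introns also hold genes of other kinds, and 49 intronic summits (12.3%, 9.42 to 15.9) lay in an exon of one. Of these 26 were in non-coding RNA genes without a closer class, 12 in tRNA genes, 3 in snRNA genes, 2 in snoRNA genes, 3 in antisense RNA genes, 2 in lincRNA genes and 1 in a pseudogene. Those in tRNA genes had signal values from 69.8 to 125.9 with a median of 110.3, against 114.0 for all intronic summits. None of the 12 held a Grainyhead-type site or AGACGCAG, 4 held GAGAGA, and 2 were in both replicates' lists. Of all intronic summits 85.5% held no Grainyhead-type site, 10.5% held AGACGCAG and 39.6% GAGAGA, and 41.9% were in both lists. With 12 summits these differences were not tested. Of 239 tRNA genes in introns outside promoter windows, 12 (5.02%, 2.9 to 8.57) had a summit, as did 3 of 46 snRNA genes, 2 of 120 snoRNA genes, 0 of 73 miRNA genes and 0 of 4575 piRNA genes. Without all 49, 350 intronic summits remained, which was 14.2% of the list.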

How the data were processed

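ChIP-seq was performed on 2 biological replicates of 1 group, and the authors deposited peak lists on build ce11, per the labels. No source used here names the aligner, the peak caller or the number of reads. There are lists per replicate and for the pool, so overlaps between them are not those of independent experiments. The deposited signal value is a score on the scale of its own list. The −log10 IDR (irreproducible discovery rate) of the deposited ranked lists was used only to find peaks that passed an IDR of 0.01 outside the thresholded list. A further 16 columns of per-sample values were not used.

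Summits on chromosomes I to V and X were placed on Ensembl release 115 and sequence was read from the RefSeq assembly WBcel235, whose chromosome lengths match. Overlap needed 1 bp. Sites were searched up to 100 bp from the summit base, and shares were compared by Fisher's exact test (two-sided) with p adjusted by Benjamini-Hochberg at 0.05. The site search and the Fisher step were tested on simulated windows with planted sites. The placement of summits, the host genes and the overlaps of lists were not simulated. Tables were handled with pandas 2.3.3 and numpy 2.4.6 in Python 3.11.15, tests came from SciPy 1.17.1 and plots from matplotlib 3.10.9.

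The members, the 12 sites and the 11 gene lists were chosen with earlier results of these data known. Genes were named if they hosted the 15 highest summits, a palindrome summit, 3 or more summits, or up to 4 of the highest in a list. F58G1.11, the remaining list members and the hosts outside the lists were named after their values were seen. No sequences from chromosome I are printed. Alternatives were other lists, windows and intron definitions.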

Additional observations from a re-analysis of the deposited data

How the results depend on the processing

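Over 33 results and 344 alternative values, 268 kept their direction and their side of the threshold or moved by less than the counting error. The share of summits in introns was 14.2% with the 1235 highest-scoring peaks, 19% with promoter windows of 500 bp upstream and 100 bp downstream, 12.4% with 2000 bp upstream, 14.2% outside exons of other genes, and 14.7% to 15.1% without replicate 1 or 2. With those peaks, introns over 1000 bp held 73.7%, both replicates' lists held 85.7% (odds ratio against promoters 0.67), the palindrome was at 10.9%, and the median signal value was 218.5. Without either replicate in turn, long introns held 69.9% to 71.7% and the palindrome was at 7.81% to 8.22%. AACCGGTT against promoters passed with the highest peaks (odds ratio 2.59), with merged regions (1.97) and with 500 bp windows (1.99). It also passed outside exons of other genes (2.23), with 50 bp to either side (2.3) and without replicate 2 (2.3). It did not pass with the conservative list (1.71), with 2000 bp windows (1.89) or with 200 bp to either side (1.76). Nor did it pass without replicate 1 (2.22) or with gene spans in place of introns (1.93). GAGAGA against promoters did not pass with the conservative list (1.2), with 2000 bp windows (1.28), outside exons of other genes (1.29) or with 200 bp to either side (1.34). AGACGCAG against promoters was on the other side of 1 with the highest peaks (1.27) and without a replicate (1.01 to 1.07). Of 24 site comparisons 2 passed with the conservative list, 0 with 2000 bp windows, 4 with 200 bp to either side, and 4 to 8 without a replicate.

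Further odds ratios crossed 1, none of which passed. Against intergenic summits these were AACCGGTT with the conservative list (0.997) and with 200 bp (0.984), AACTGGTT with 50 bp (0.952) and without a replicate (0.966 to 1.32), ACCGGT with the highest peaks (1.12) and without a replicate (1.08 to 1.19), GAGAGA with the highest peaks (1.29) and without a replicate (0.918 to 1.39), RGGTCA with the conservative list (0.997) and with the highest peaks (0.976), TTTCAG with 50 bp (0.978) and 200 bp (0.982), and TGATAA with the highest peaks (1.32), with merged regions (1.04), outside exons of other genes (1.11) and without a replicate (0.911 to 1.44). Against promoters it was CACATGTG with 200 bp (2.41) and without a replicate (1 to 2.34). The cause was not tested. The median signal value and the share in both lists could not be computed for a single replicate's list. The alternatives for sites other than AACCGGTT, GAGAGA and AGACGCAG against promoters, for the overlap odds ratio, and the gene-span definition of introns were chosen after seeing the data. No paired analysis was possible because there was 1 group. The unknown depth limits what an absent peak means.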

Other observations

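In the pooled ranked list, 49 peaks had an IDR of at most 0.01 and were not in the thresholded list. Of these, 2 had their summit in an intron by the same rule. Both lay in Y18H1A.14, with signal values of 51.2 and 32.8 and a −log10 IDR of 2.64 each, and the nearest thresholded summit was 134089 bp away from the first. They were not counted among the 399.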
